A study of Mus musculus with 2 samples.

Results

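The CC chemokines Ccl2, Ccl7, Ccl12, Ccl3, Ccl4, Ccl5, Ccl6 and Ccl9 are secreted proteins by which macrophages draw monocytes and other leukocytes to a tissue. These 8 genes were taken by name, with every probe set that the annotation of the array gives to 1 of them alone. This yielded 10 probe sets for 8 of the 18194 genes named on the array, with 2 probe sets each for Ccl6 and Ccl9 and 1 for each of the others. The annotation gave no probe set to a member and another gene together, but probe sequences were not checked. Bone marrow-derived macrophages (BMDMs) of female C57BL/6J mice aged 8 weeks, grown with M-CSF for more than 7 days, were kept for 1 hr in the culture supernatant of apoptotic W3 cells or in medium, and RNA from each was read on 1 Affymetrix mouse expression array. The W3 line derives from mouse T cells and carries Fas. Its cells were exposed to Fas ligand for 30 min, washed and left for 60 min in RPMI with 1% FCS, and their supernatant was then given to the macrophages, whereas the labels give RPMI with 10% FCS as the control medium. The serum content and the presence of W3 cell products thus differed together between the conditions and cannot be told apart, and supernatant from W3 cells left alive was not analysed here.

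CC chemokines carry a pair of adjacent cysteines near the amino terminus and signal through G protein-coupled receptors named Ccr. Ccl2, Ccl7 and Ccl12 are monocyte chemoattractant proteins, which bind Ccr2, the receptor that leads monocytes out of the bone marrow and into tissue. Ccl3, Ccl5, Ccl6 and Ccl9 are ligands of Ccr1, and Ccl4 is a close relative of Ccl3. In macrophages several of these genes are known as early targets of inflammatory signals, while others are transcribed without any stimulus.

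Each value is a MAS5 signal, the brightness of a probe set as a linear intensity. With the highest and lowest 2% of the 45101 probe sets left out, the mean signal was 500.0 on both arrays. As a floor, 38.4 was used: of 80 probe sets for olfactory and vomeronasal receptors, at least 95% lay at or below this signal on either array. That these receptors are mostly silent in the macrophages was assumed and not tested. All 10 probe sets of the CC chemokines lay above it on both arrays, the dimmest at 13.7 times the floor, so no member's ratio below is a bound. With 1 array per condition no test could be run and no error is given. As a scale for reading the ratios, the log2 ratios of the brightest 2 probe sets of a gene differed with an SD of 0.35 over 5196 genes, or 0.25 for a single probe set. This measures disagreement within these arrays and covers neither biological nor array-to-array error. Fewer cells that use a gene and less of its RNA per cell cannot be told apart in RNA of a whole culture.

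With apoptotic cell supernatant 4 of the 8 CC chemokines, Ccl7, Ccl2, Ccl3 and Ccl4, had signals at least 2-fold higher than with medium, and none was at least 2-fold lower. Across all 11977 measured genes (above the floor on at least 1 array), 115 or 0.960% were at least 2-fold higher and 101 or 0.843% at least 2-fold lower. Ratios spread more among dim genes than among bright ones, so the 4337 genes at least as bright as Ccl3, the dimmest member, are the closer background. Of these 25 or 0.576% were at least 2-fold higher, and the 4 CC chemokines are among them, and 3 or 0.0692% were at least 2-fold lower. The median log2 ratio of the 8 CC chemokines was 0.83, beside -0.02 over all measured genes. That median lies between the 4 members at or above 1.12 and the 4 at or below 0.55, and no member stood at it. Counted by probe set, 4 of the 10 of the CC chemokines were at least 2-fold higher and none lower, beside 0.974% higher and 1.06% lower among all 22172 measured probe sets of a single gene.

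**Figure D1:**
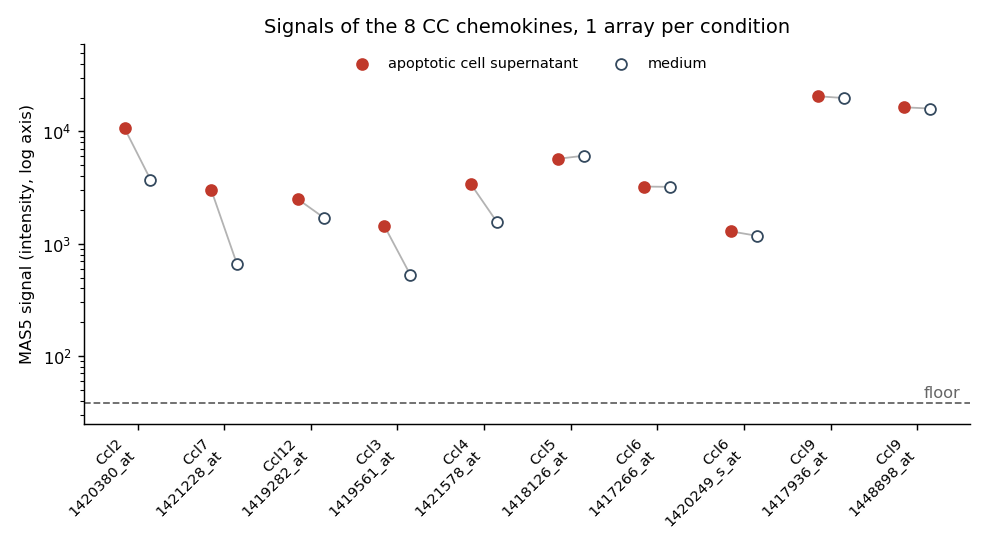
MAS5 signal (intensity, log axis) of each of the 10 CC chemokine probe sets, with apoptotic cell supernatant (filled circles) and medium (open circles), from 1 array per condition. A dashed line marks the floor (38.4). Ccl2, Ccl7, Ccl3 and Ccl4 slope down toward medium, while both probe sets of Ccl6 and of Ccl9 run almost level.

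Among the monocyte chemoattractant proteins, Ccl7 (MCP-3, a ligand of Ccr2 that also binds Ccr1 and Ccr3) differed most. Its probe set 1421228_at read 3030.5 with the supernatant and 653 with medium, 4.64-fold higher or 2.21 on the log2 scale. This placed it at rank 20 from the highest among the 11977 measured genes. Of the 3083 genes whose mean signal lay within 2-fold of that of Ccl7, the central 95% had log2 ratios between -0.33 and 0.52.

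Ccl2 (MCP-1), the main monocyte attractant of inflamed tissue, read 10674 with the supernatant and 3727 with medium on 1420380_at. This was 2.86-fold higher, 1.52 on the log2 scale and rank 41. Genes of like signal numbered 1233, and their central 95% ran from -0.21 to 0.32. Ccl12 (MCP-5), a ligand of Ccr2 in the mouse, had a lower ratio than Ccl2 and Ccl7. It read 2496 with the supernatant and 1707 with medium on 1419282_at, a ratio of 1.46 that did not reach 2-fold. On the log2 scale this was 0.55, above the 0.49 that closes the central 95% of the 2902 genes of like signal, and its rank was 508.

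Ccl3 and Ccl4 (MIP-1 alpha and MIP-1 beta), attractants of monocytes, T cells and NK cells, were both over 2-fold higher. Ccl3 read 1437 with the supernatant and 527 with medium on 1419561_at, 2.73-fold higher or 1.45 on the log2 scale, at rank 47. Ccl4 read 3376 with the supernatant and 1557 with medium on 1421578_at, 2.17-fold higher or 1.12 on the log2 scale, at rank 86. Of the 4 members over the threshold Ccl4 was thus the closest to it. The central 95% of genes of like signal was -0.40 to 0.56 for Ccl3 and -0.30 to 0.46 for Ccl4.

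Ccl5 (RANTES), a chemokine that T cells and macrophages both make, read 5699.6 with the supernatant and 6066 with medium on 1418126_at. Its ratio was 0.94 and its log2 ratio -0.09, inside the central 95% of 1463 genes of like signal (-0.22 to 0.33). Ccl5 was bright on both arrays, and the difference was smaller than the disagreement between probe sets of a gene.

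Ccl6 (C10) and Ccl9 (MIP-1 gamma), which myeloid cells produce in quantity, were bright on both arrays and almost equal between them. Ccl6 read 3227 with the supernatant and 3206 with medium on 1417266_at, and 1288 with the supernatant and 1176 with medium on 1420249_s_at. The log2 ratios were 0.01 and 0.13. Ccl9 read 20554 with the supernatant and 19827 with medium on 1417936_at, and 16392 with the supernatant and 15975 with medium on 1448898_at. Its log2 ratios were 0.05 and 0.04. For both genes the probe sets gave the same reading, signals that were nearly equal, and these are the only members with such a second reading. The 4 higher members and Ccl12 and Ccl5 each rest on a single probe set.

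Ordered by log2 ratio, the members ran Ccl7 (2.21), Ccl2 (1.52), Ccl3 (1.45), Ccl4 (1.12), Ccl12 (0.55), Ccl9 (0.05), Ccl6 (0.01) and Ccl5 (-0.09). Ccl7 exceeded Ccl2 by 0.70 on the log2 scale, Ccl4 exceeded Ccl12 by 0.57 and Ccl12 exceeded Ccl9 by 0.50, each more than the SD of 0.35 between probe sets of 1 gene. Ccl2 and Ccl3 (0.07 apart), Ccl3 and Ccl4 (0.33), Ccl9 and Ccl6 (0.04) and Ccl6 and Ccl5 (0.10) did not differ beyond it. This order is of differences between the conditions, since signals of different probe sets are not on a common scale of RNA amount.

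**Figure D2:**
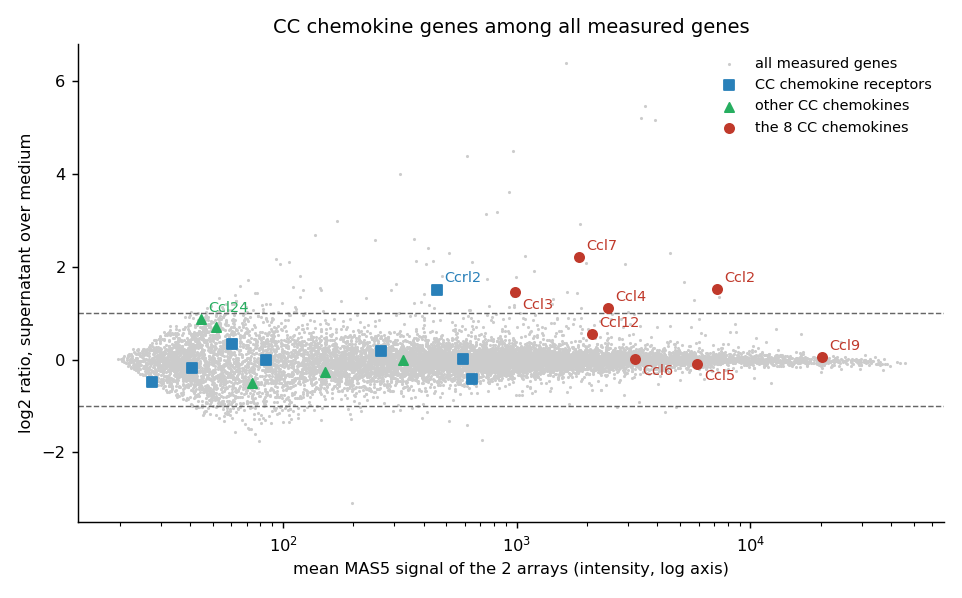
Log2 ratio (supernatant over medium, signals raised to the floor where below it) against the mean MAS5 signal of the 2 arrays (intensity, log axis), for all 11977 measured genes (grey), the 8 CC chemokines (red circles), other CC chemokines (green triangles) and CC chemokine receptors (blue squares), and 2-fold differences drawn as dashed lines. Ccl7 (2.21), Ccl2 (1.52), Ccl3 (1.45) and Ccl4 (1.12) stand above the upper line in a range of signal where most genes lie near 0, and Ccrl2 (1.51) is the single receptor above it.

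All 8 genes lie on mouse chromosome 11 in 2 clusters, by the gene order of RefSeq (GRCm38.p6). The first runs Ccl2, Ccl7, Ccl11, Ccl12, Ccl8 and Ccl1, and the second Ccl5, Ccl9, Ccl6, Ccl3 and Ccl4. In the first, the adjacent genes Ccl2 and Ccl7 were both over 2-fold higher, and Ccl12, further along, had a lower ratio. Ccl8 (MCP-2), beside Ccl12, read 327 with the supernatant and 328 with medium, a log2 ratio of -0.01. Ccl11 (eotaxin, an attractant of eosinophils) and Ccl1 lay below the floor on each array, at 2.90 and 2.12 with the supernatant and 6.40 and 17.6 with medium. In the second cluster the adjacent genes Ccl3 and Ccl4 were over 2-fold higher and the other 3 were not. Each cluster therefore held both kinds of member. The RefSeq intervals of Ccl3 and Ccl4 overlap. Probe sequences were not used here. Whether the probe set of any member, those of Ccl2, Ccl7 and Ccl12 included, also reads transcripts of a related chemokine was therefore not tested. Of 18 genes that stand between the members or within 3 places of them, 14 had no probe set of their own, 3 lay below the floor on each array and Ccl8 was the only one measured.

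**Figure D3:**
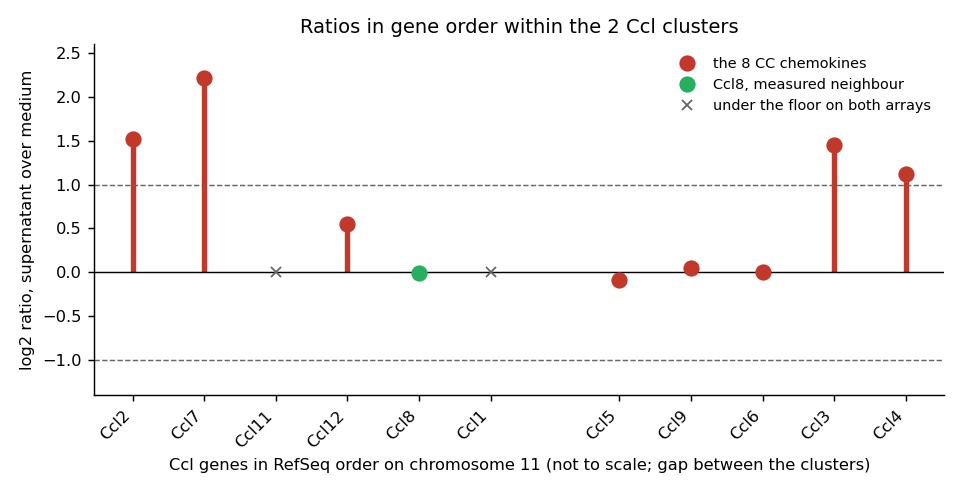
Log2 ratio of supernatant over medium (vertical axis) for the Ccl genes of chromosome 11 in RefSeq order, not to scale, with members in red, Ccl8 in green, crosses for genes below the floor on each array, and 2-fold differences drawn as dashed lines. The adjacent genes Ccl2 and Ccl7 reach 1.52 and 2.21 and the adjacent genes Ccl3 and Ccl4 reach 1.45 and 1.12, while Ccl5, Ccl9 and Ccl6 lie between -0.09 and 0.05.

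Promoter sequences were found in the RefSeq table (GRCm38.p6) for 4 of the 8 genes, Ccl3, Ccl12, Ccl6 and Ccl9. They are shown because they place a gene over 2-fold higher (Ccl3) beside one with a ratio of 1.46 (Ccl12) and 2 that were nearly equal between the conditions. Each is the 250 bases before the gene's start, 5′ to 3′ on the strand of the gene, from chr11:83649379-83649628 (minus strand), chr11:82101595-82101844 (plus strand), chr11:83593088-83593337 (minus strand) and chr11:83578637-83578886 (minus strand). Capitals mark matches to the motifs searched.
Ccl3: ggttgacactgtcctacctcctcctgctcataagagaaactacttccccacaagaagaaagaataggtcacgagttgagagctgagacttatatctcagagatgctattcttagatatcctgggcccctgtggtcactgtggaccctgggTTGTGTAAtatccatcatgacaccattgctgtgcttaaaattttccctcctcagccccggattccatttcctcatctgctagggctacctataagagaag
Ccl12: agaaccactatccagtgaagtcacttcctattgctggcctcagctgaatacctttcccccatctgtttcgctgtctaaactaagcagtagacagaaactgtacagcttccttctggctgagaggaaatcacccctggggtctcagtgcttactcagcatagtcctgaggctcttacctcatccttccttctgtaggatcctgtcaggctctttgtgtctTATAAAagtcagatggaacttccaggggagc
Ccl6: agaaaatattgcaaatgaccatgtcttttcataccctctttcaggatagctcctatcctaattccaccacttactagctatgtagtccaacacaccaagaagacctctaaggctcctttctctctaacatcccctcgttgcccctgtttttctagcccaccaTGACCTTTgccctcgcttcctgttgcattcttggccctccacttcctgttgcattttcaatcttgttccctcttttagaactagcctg
Ccl9: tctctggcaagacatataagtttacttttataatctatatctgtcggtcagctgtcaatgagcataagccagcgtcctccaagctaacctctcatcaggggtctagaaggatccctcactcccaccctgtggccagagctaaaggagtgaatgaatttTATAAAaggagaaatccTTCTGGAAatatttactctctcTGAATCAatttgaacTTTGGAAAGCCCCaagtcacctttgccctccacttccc

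The motifs were AP-1 (TGANTCA), CRE (TGACGTCA), the shorter CRE core (TGACG, which every CRE also holds), the NBRE bound by Nr4a receptors (AAAGGTCA), C/EBP (TTNNGNAA) and the NF-kB motif, on both strands, and the TATA box, written TATAAA, on the strand of the gene. The search covered 300 bases, from 250 before to 50 after the start. The Ccl3 window held a C/EBP match 100 bases before the start, a motif that 40.7% of all 32851 windows of that length hold. It held none of the other motifs, NF-kB and AP-1 included, which says only that these letters are not in this window. The Ccl12 window held TATAAA 31 bases before the start (8.32% of windows). Ccl9, with a log2 ratio of 0.05, had the most matches. They were TATAAA, further away at 92 bases before the start, AP-1 (7.81% of windows), 2 of C/EBP and NF-kB (4.51%). The NF-kB match overlapped a C/EBP match. Ccl6 held an NBRE match on the opposite strand 88 bases before the start (1.51% of windows). No CRE (1.79%) or CRE core (20.8%) was found in the 4 windows. The neighbours Ccl6 and Ccl9 shared the longest stretch of like sequence, with 59 of 67 aligned bases identical, against at most 19 aligned bases in any other pair.

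Of 13 other CC chemokines listed, 10 had a probe set of their own and 5 of these were measured, none with a 2-fold difference at this floor (median log2 ratio -0.01). Besides Ccl8 they were Ccl25, Ccl27a, Ccl28 and Ccl24, chemokines known mainly from epithelia, mucosa and, for Ccl24, macrophages and eosinophil attraction. Ccl25 read 138 with the supernatant and 164 with medium, and Ccl27a 60.8 with the supernatant and 86.1 with medium. Ccl28 read 64.3 with the supernatant and 39.5 with medium on its brightest probe set, a log2 ratio of 0.70, and 0.12 on another above the floor. Ccl24 read 70.7 with the supernatant and 18.1 with medium, at least 1.84-fold higher against the floor and over 2-fold higher without it. Apart from Ccl8 and Ccl25, all of these lay not far above the floor. Ccl17 and Ccl22, ligands of Ccr4, and Ccl20, the ligand of Ccr6, were below the floor on each array.

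Among the receptors, Ccrl2, an atypical receptor that binds chemerin without signalling like the others, had a ratio close to that of Ccl2. It read 673 with the supernatant and 237 with medium, 2.84-fold higher, and of all genes above the floor on both arrays its log2 ratio (1.51) was nearest to that of Ccl2. It was the only 1 of 8 measured receptors with a 2-fold difference at this floor (13 of 14 listed had a probe set of their own, and 5 of these lay below the floor on each array), and it rests on 1 probe set with the suffix _a. Ccr2, the receptor of Ccl2, Ccl7 and Ccl12, read 551 with the supernatant and 734 with medium on its brightest probe set, a log2 ratio of -0.41. The other 3 probe sets of Ccr2 gave log2 ratios of -0.12, 0.18 and -0.09. Ccr1, the receptor shared by Ccl3, Ccl5, Ccl6 and Ccl9, read 279.6 with the supernatant and 244 with medium, a log2 ratio of 0.20, and its dimmer probe set 28.1 with the supernatant and 49.6 with medium, a log2 ratio of -0.37 against the floor. Ccr3 read 67.7 with the supernatant and 53.8 with medium. The scavenging receptors Ackr4 and Ackr1 read 594 and 83.9 with the supernatant and 588 and 84.5 with medium. Ackr2 read 38.0 with the supernatant, just under the floor, and 43.7 with medium, at least 1.14-fold lower. Another probe set of Ackr2 went the other way, at 48.2 with the supernatant and 7.36 with medium, a log2 ratio of 0.33 against the floor. Ccr6 read 1.56 with the supernatant, under the floor, and 53.7 with medium, at least 1.40-fold lower, and over 2-fold lower with no floor or with the floor as a pseudocount. No probe set of Ccr2 or Ccr1 reached a 2-fold difference in either direction.

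The CXC chemokines, which mainly attract neutrophils and lymphocytes, form the other large family of chemokines. Of 14 listed, 11 were measured, with 1 at least 2-fold higher, 1 at least 2-fold lower and a median log2 ratio of 0.15. Cxcl3, a neutrophil attractant, read 425 with the supernatant and 71.7 with medium, a log2 ratio of 2.57. Cxcl2 read 1510.0 with the supernatant and 842 with medium, a log2 ratio of 0.84, and Cxcl1 207 with the supernatant and 151 with medium (0.45, with 0.43 and 0.44 on its other probe sets). Cxcl11, an interferon-induced attractant of T cells, read 59.6 with the supernatant and 123 with medium, a log2 ratio of -1.05 that fell short of 2-fold after median-centring of the arrays. The difference between the CXC and CC chemokines was not tested, since genes of 1 list are not replicates.

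Apoptotic cells are known to release signals that attract phagocytes, among them nucleotides, sphingosine-1-phosphate and fractalkine. Of 10 genes listed for these signals and their receptors, 9 were measured, and P2ry2, the receptor for ATP and UTP, was the only 1 whose brightest probe set had a 2-fold difference. It read 96.8 with the supernatant and 9.44 with medium, at least 2.52-fold higher against the floor on a single probe set. Cx3cl1, which encodes fractalkine, read 105 with the supernatant and 79.8 with medium. S1pr1 and S1pr2, receptors of sphingosine-1-phosphate, read 499 and 1008 with the supernatant and 596 and 1289 with medium. The dimmer probe set of S1pr2, with the suffix _x, read 183 with the supernatant and 387 with medium, a log2 ratio of -1.08. The median log2 ratio of this list was -0.01.

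Genes that govern the transcription of CC chemokines or the life of their mRNA differed in both directions. Of 18 measured NF-kB, AP-1 and IRF regulators 4 were at least 2-fold higher and none at least 2-fold lower (median log2 ratio 0.30). Fosl2, an AP-1 subunit, read 4670 with the supernatant and 1127 with medium (log2 ratio 2.05, and 0.86 on its other probe set). Fosb, another subunit, read 305 with the supernatant and 35.6 with medium, at least 7.95-fold higher against the floor. Rel, the NF-kB subunit c-Rel, read 547 with the supernatant and 233 with medium (1.23). Nfkbie, an inhibitor of NF-kB, read 1968 with the supernatant and 858 with medium (1.20, and 1.14 on its other probe set). Jun, an AP-1 subunit, had the lowest ratio of the list, at 1144 with the supernatant and 2206 with medium (-0.95, and -0.23 on its other probe set). Of the C/EBP factors listed, Cebpd had log2 ratios of -0.60 and -0.21. Cebpb went the other way, at 15690 with the supernatant and 9955 with medium (0.66). Its dimmer probe set, with the suffix _a, gave a log2 ratio of 1.23. Of 12 genes for mRNA and protein turnover, all measured, the median log2 ratio was -0.09 and 1 reached 2-fold, upward. This was Zc3h12a, the ribonuclease regnase-1, at 342 with the supernatant and 171 with medium, just on the threshold, while its other probe set gave a log2 ratio of -0.25. Zfp36 (tristetraprolin), which speeds the decay of mRNAs with AU-rich elements, read 7843 with the supernatant and 4248 with medium (0.88). Mmp12, a protease that cleaves chemokines, read 1885 with the supernatant and 2588 with medium. Mmp9 read 8.42 with the supernatant, under the floor, and 65.2 with medium, at least 1.70-fold lower.

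**Figure D4:**
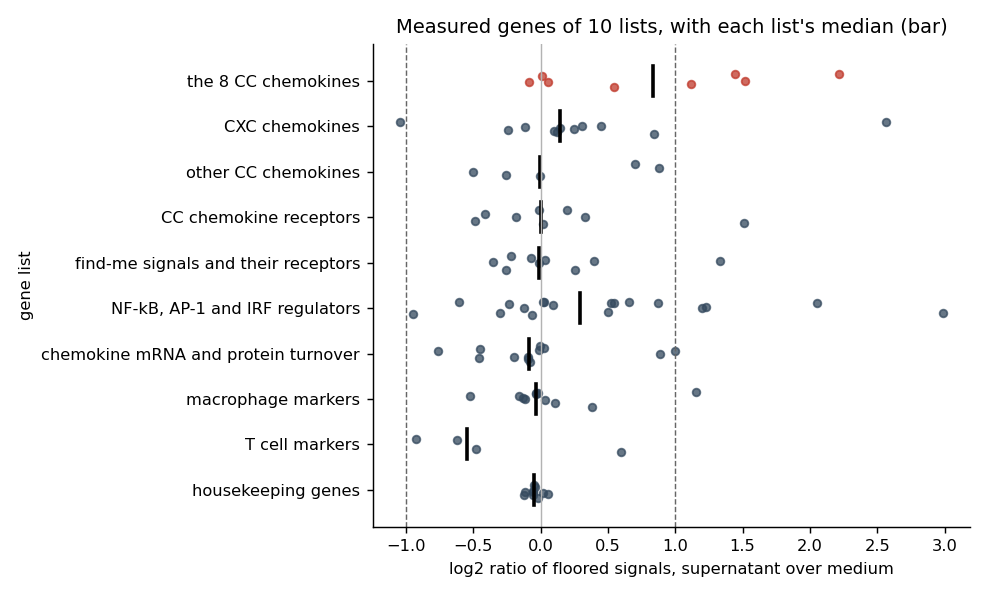
Log2 ratio of supernatant over medium (horizontal axis) for each measured gene (points, jittered vertically) of 10 gene lists. Bars give medians, and dashed lines a 2-fold difference. The 8 CC chemokines fall into 4 points right of the upper dashed line and 4 left of it around a median of 0.83, and all 10 measured housekeeping genes lie between -0.12 and 0.05.

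The genes nearest to the 4 higher members in log2 ratio were sought among those with both signals over the floor. All members were left out of this search, and no other CC chemokine had a 2-fold difference, so none could be expected among them. For Ccl7 they were Nfil3 (4.67-fold higher), Grasp (4.38) and Cass4 (4.93). For Ccl2 they were Ccrl2 (2.84), Flrt3 (2.84) and Ces5a (2.82). For Ccl3 they were Hspa1b (2.75), Tmc8 (2.70) and C730049O14Rik (2.70), and for Ccl4 Dusp2 (2.17), Nuak2 (2.15) and Fkbp11 (2.14). Likeness was the absolute difference in log2 ratio over 2 arrays, so each gene is compared by a single number.

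Markers of the cell types that a culture or supernatant of this kind could hold were read beside these results. All 11 measured macrophage markers (of 12 listed) were above the floor, with Csf1r, Adgre1, Cd68 and Lyz2 at log2 ratios between -0.12 and 0.03, and their summed signal was 133679 with the supernatant and 130714 with medium. Mertk, a receptor for apoptotic cells, was the only 1 of them with a 2-fold difference (1050.0 with the supernatant and 471 with medium), while Cebpa, a myeloid transcription factor, and Cd14, a coreceptor for bacterial lipopolysaccharide, had log2 ratios of -0.53 and 0.38. T cells make Ccl3, Ccl4 and Ccl5, and W3 is a T cell line. Of 12 T cell markers with a probe set of their own, 8 lay below the floor on each array, among them Cd3d, Cd3e, Cd3g, Cd4 and Thy1. Of the 4 others, Cd28, Zap70 and Cd5 had log2 ratios of -0.48, 0.59 and -0.62, and Cd8a was at least 1.90-fold lower. The summed signal of the T cell list was 730.5 with the supernatant and 853 with medium. Markers of mast cells, stromal cells, NK cells, dendritic cells and B cells had 6 of 8, 7 of 8, 4 of 5, 4 of 7 and 2 of 5 genes below the floor on each array, and their highest signal was 94.6. The summed signal of the 8 stromal markers was 182 with the supernatant and 80.8 with medium, all near or below the floor. Of 9 neutrophil markers 4 were below it, their sum was 738 with the supernatant and 521 with medium, and the median log2 ratio of the 5 measured was 0.42. S100a8 read 462 with the supernatant and 391 with medium, S100a9 read 73.0 with the supernatant and 5.85 with medium (at least 1.90-fold higher), and Elane and Ngp were at least 1.35-fold and 1.34-fold higher. Csf3r went the other way, at 68.9 with the supernatant and 77.7 with medium, a log2 ratio of -0.17. By brightest probe set and with the floor, no gene of these marker lists other than Mertk reached a 2-fold difference. What part other cells or the serum had in the ratios of the CC chemokines was not tested.

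The ratios of the members moved little with the processing. Under 10 alternatives the same 4 genes, Ccl7, Ccl2, Ccl3 and Ccl4, were at least 2-fold higher, and no member was at least 2-fold lower. Each of these 4 has a single unsuffixed probe set far above the floor. Their ratios could therefore change only with median-centring, quantile normalization, loess or the floor as a pseudocount. The other alternatives could not have removed them.

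**Figure D5:**
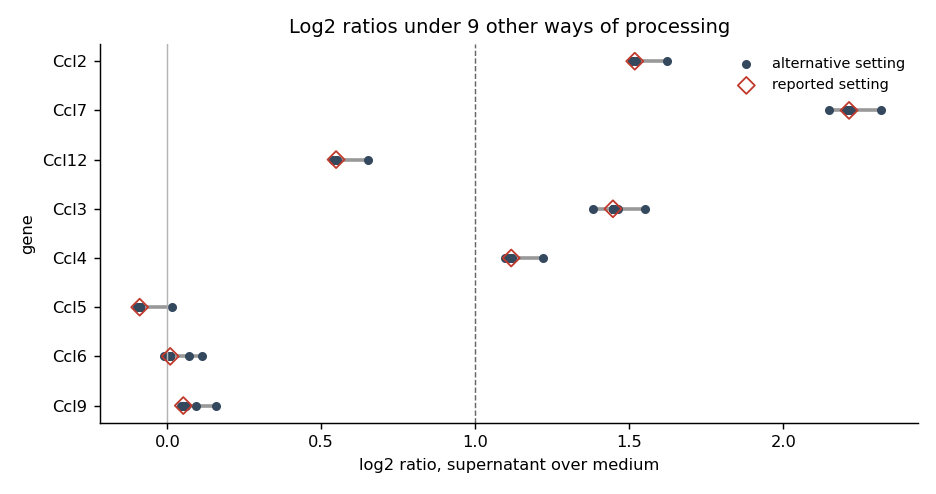
Log2 ratio of supernatant over medium (horizontal axis) of each member as reported (red diamonds) and under the 9 alternative settings other than the 1.5-fold threshold (dark points, joined by a line over their range), with a dashed line at a 2-fold difference. Several of these settings leave a member's ratio as reported. Ccl4 stays right of the dashed line at 1.12 as reported, and Ccl12 left of it with at most 0.65.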

How the data were processed

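RNA of 2 BMDM samples was analysed, 1 per condition, grouped by the sample labels. The authors deposited MAS5 signals, an intensity per probe set, which the submitters' processing notes also name (MAS5). Further scaling, filters and a genome build are not given in the sources used here. Probe sets were named from the platform annotation of the array, with symbols checked through Entrez identifiers in RefSeq (GRCm38.p6). Of 45101 probe sets, 34958 had 1 gene, 932 had several and were used for none, and 9211 were not listed.

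A gene was read by its brightest probe set (highest mean signal), lower signals were raised to the floor (38.4), and supernatant was divided by medium and put on a log2 scale. A call is a ratio of at least 2-fold. A gene with 1 signal under the floor has a bound, written as at least. Named genes are all 8 members, the measured CC chemokines and receptors, and up to 4 genes per other list with the largest log2 ratios. Also named are the 3 genes outside the members that were nearest in ratio to each called member. Exceptions named after their values were seen are Ccl17, Ccl20, Ccl22, the cluster genes Ccl1 and Ccl11, Jun, Cebpd, Cebpb, Csf3r and single T cell and macrophage markers. The members and the lists were chosen with earlier results of these data known.

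The alternatives were median-centring, quantile normalization, loess (span 30%), no floor, floors of 76.8 and 10.0, the floor as a pseudocount, averaging a gene's probe sets on the log2 scale, leaving out suffixed probe sets (_s, _x, _a), and a 1.5-fold threshold. Counts of the whole table used 11977 measured genes. The steps were tested on simulated data. Python 3.11.15, numpy 2.4.6, pandas 2.3.3, statsmodels 0.14.6, biopython 1.88 (local alignment) and matplotlib 3.10.9 were used.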

Additional observations from a re-analysis of the deposited data

Results flagged for a closer look

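Probe sets given to several genes were used for no gene. Of 4 such probe sets that name a CC chemokine, 2 were above the floor, both shared by Ccl27a, Ccl27b and further genes, and both read higher with the supernatant. Probe set 1419188_s_at read 75.5 with the supernatant and 61.1 with medium, and 1430375_a_at read 73.8 with the supernatant and 58.9 with medium, log2 ratios of 0.30 and 0.33. The probe set given to Ccl27a alone read 60.8 with the supernatant and 86.1 with medium, in the opposite direction. All 6 signals were dim and without replicates, and the cause was not tested.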

How the results depend on the processing

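No paired analysis was possible because there was a single array for the supernatant and a single array for medium, and no array could be left out. The same 4 members, Ccl7, Ccl2, Ccl3 and Ccl4, were at least 2-fold higher under all 10 alternatives, and none was at least 2-fold lower in any of them. For these 4, as for Ccl12 and Ccl5, only median-centring, quantile normalization, loess and the pseudocount moved the ratio. The 1.5-fold threshold is only easier to reach. The median log2 ratio of the 8 members ranged from 0.82 to 0.94. Across the 9 alternatives other than the 1.5-fold threshold, Ccl7 was between 4.44-fold and 4.99-fold higher and Ccl2 between 2.84-fold and 3.08-fold. Ccl3 was between 2.61-fold and 2.93-fold higher, Ccl4 between 2.14-fold and 2.33-fold and Ccl12 between 1.45-fold and 1.57-fold. On the log2 scale Ccl5 (-0.10 to 0.01) and Ccl6 (-0.01 to 0.11) crossed 0, and Ccl9 lay between 0.04 and 0.16. The upper ends come with median-centring, which moved the ratios of all probe sets by 0.10 on the log2 scale. Over all genes the split of 115 higher and 101 lower was 160 and 67 with it, 145 and 74 after quantile normalization and 145 and 71 after loess.

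Of the values recomputed, each a result under 1 alternative, 143 stayed close to the reported value and 18, all counts in the related lists, moved. The 143 include values that the alternative could not alter. Among receptors, the number at least 2-fold higher was 0 without suffixed probe sets, since Ccrl2 has no other, and 2 with the floor at 10.0, and the number lower was 1 with no floor, with the floor at 10.0 and with the pseudocount. Of the other CC chemokines, 1 was higher without any floor and when it was set to 10.0, 2 with the 1.5-fold threshold, and 1 was lower with the floor at 10.0. The CXC count higher was 2 with no floor and with the 1.5-fold threshold and 3 with the floor at 10.0. The CXC count lower was 0 after each scaling, with the floor at 76.8, with the pseudocount and with the mean of all probe sets, so the 2-fold difference of Cxcl11 rests on the setting. Over all genes, 369 were higher and 464 lower without any floor, and 975 higher and 1158 lower when it was set to 10.0. With the floor at 76.8 they were 77 higher and 27 lower. With a 1.5-fold threshold they were 444 and 535. With a single array per condition, a ratio holds the differences between cultures, labelling and arrays together.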
